A study of Mus musculus with 661 samples.

Results

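Antioxidant enzyme genes of mouse bone marrow stroma were represented by 9 of 45771 nuclear gene symbols, namely the superoxide dismutases Sod1, Sod2 and Sod3, catalase (Cat), and the glutathione peroxidases Gpx1, Gpx3, Gpx4, Gpx7 and Gpx8. They were chosen by symbol, from a family whose levels across populations and ages had already been seen in these same counts. Endothelial cells were in addition divided by their own level of Cxcl12, which encodes a chemokine of stromal cells. Levels and differences of these genes are therefore given as a description with no test. Genomic positions are of GRCm38.

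Single stromal cells of C57BL/6 wild-type mice of both sexes were sorted into wells and sequenced over full transcripts. The 661 cells used here are those that passed the authors' quality filters on read number and mitochondrial share. Mice were young (about 2 months) or old (about 24 months), to compare the marrow niche between ages. All cells were negative for Ter119 and CD45. Cells of each age came from more than 1 mouse, but the labels do not say which cell came from which, so that each of the 12 population-by-age groups could be taken only as 1 sample, with no spread between mice. Mesenchymal cells, negative for CD31, were MSC-S (endosteal, Sca-1+ CD51+, 59 young and 59 old cells), OPr (endosteal, Sca-1− CD51+ PDGFRα− LepR−, 44 young and 29 old), mOPr (endosteal, Sca-1− CD51+ PDGFRα+ LepR−, 26 young and 26 old) and MSC-L (central marrow, Sca-1− CD51+ PDGFRα+ LepR+, 53 young and 58 old). Endothelial cells, positive for CD31, were labelled AEC (endosteal, 84 young and 82 old) and SEC (central marrow, 70 young and 71 old). The paper defines AEC as Sca-1 high and CD105 low and SEC as Sca-1 low and CD105 high. It describes the sequenced endosteal endothelial cells as mainly AEC and those of the marrow as mostly SEC, so not every cell need have its label's phenotype. A cell had from 57517 to 1488549 nuclear counts, and the median of a group lay between 302201 in old SEC and 775426 in old OPr. Library numbers fell into 3 ranges, with mesenchymal cells in ranges 1 and 2, SEC in range 3 and AEC in all 3.

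Superoxide, a by-product of respiration and a product of dedicated oxidases, is turned into hydrogen peroxide by superoxide dismutases, and catalase and glutathione peroxidases reduce peroxides further. These enzymes are divided by place: SOD1 works in the cytosol with copper and zinc, SOD2 in mitochondria with manganese and SOD3 outside the cell, while catalase is held in peroxisomes. In the marrow, the level of reactive oxygen species bears on the quiescence and output of blood stem cells, and stromal cells shape that environment.

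Levels are in CPM, the usual scaling of a gene's reads to the nuclear total, here pooled across all cells that share a group, with exact Poisson intervals at the 95% level in parentheses. PCR reads without molecular identifiers are not independent molecules, so that all intervals cover counting error only. Differences between ages are log2 ratios of CPM + 1, old over young, with the exact conditional binomial interval of the ratio of counts. A difference of at least 2-fold, with at least 100 counts over both groups in at least 5 cells, is said to pass the fold limit. All 9 genes passed the filter on counts in every comparison of pooled groups, and within library ranges all did but Gpx8 in AEC of range 3, with counts in 4 cells.

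Marker genes set out for each population were present under its label. All 10 MSC-L markers reached 10 CPM in young and old MSC-L, with summed levels of 67981 and 55585 CPM and Cxcl12 as the most abundant. All 8 markers of MSC-S and fibroblasts did so in MSC-S of both ages (5200.1 and 7124 CPM, Igfbp6 the most abundant). The 10 endothelial markers were all at 10 CPM or more in AEC and SEC of both ages, with sums from 10053 CPM in young SEC to 11497 CPM in young AEC. Arterial markers summed to 1407 and 1553 CPM in young and old AEC and to 107 and 583 CPM in SEC. Sinusoidal markers, led by Stab2, summed to 10802 and 8907 CPM in SEC, whereas Lyve1 was at 0 in old SEC. Markers of other cells were present too. Pericyte and smooth muscle markers summed to 2207 and 2068 CPM in young and old AEC (6 of 6 at 10 CPM or more). The MSC-L list summed to 15551 and 9723 CPM in young and old SEC (10 of 10). Labels of the endosteal osteoprogenitors fitted their markers less closely.

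Of the osteolineage markers, 7 of 8 reached 10 CPM in young OPr and 8 of 8 in old OPr, and 7 of 8 did in mOPr of both ages (11188 and 13417 CPM). In young and old OPr, cartilage markers summed to 38421 and 2384 CPM (6 of 6 at 10 CPM or more at both ages) and osteolineage markers to 5185 and 3844 CPM. Old OPr also held 7 cells with at least 7 of 15 blood cell markers, and the blood list summed to 25.5 CPM in young and 11389.6 CPM in old OPr (11 of 15 at 10 CPM or more, S100a9 the most abundant, Ltf, Mpo and Elane at 0). Without those 7 cells it summed to 2691 CPM, with Cd74 the most abundant. Without them the count of antioxidant enzymes past 2-fold in OPr was 2 in place of 1, with Cat at a log2 ratio of 1.14 added to Sod3 at −3.33, beside 44.6% of all genes. With the median over cells, Cat in OPr was past 2-fold the other way, at −2.10 (3.29 CPM in young and 0 in old).

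In MSC-L, 0 of 9 passed the fold limit, beside 25.4% of all genes past the filter (13.9% higher and 11.5% lower in old). In MSC-S it was again 0 of 9, beside 19.7% of all genes past the filter (8.65% higher and 11.1% lower in old). With the median over cells it was 3 in MSC-L and 1 in MSC-S, and in range 1 alone 2 in each, so that a count of 0 holds for the pooled values only and nothing particular to these genes is read from it. The median log2 ratio over the 9 was −0.06 in MSC-L and −0.10 in MSC-S, against 0.01 and −0.06 over all genes past the filter.

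In OPr 1 of 9 passed (Sod3, lower in old), beside 45.2% of all genes past the filter (25.6% higher and 19.6% lower in old). In mOPr 4 of 9 passed, with Sod3 and Gpx1 lower and Cat and Gpx8 higher in old, beside 44.5% of all genes past the filter (24.7% higher and 19.8% lower in old). The wide background is a measure of how far the pooled osteoprogenitors of both ages differed in general, and nothing particular to these genes is read from their number.

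In AEC 2 of 9 passed (Gpx3 and Gpx8, both higher in old), beside 21.1% of all genes past the filter (9.33% higher and 11.7% lower in old). In SEC 0 of 9 did, beside 20.7% of all genes past the filter (13.1% higher and 7.56% lower in old). With the median over cells the counts were 0 in AEC and 2 in SEC. Range 3 alone gave 4 in AEC, and leaving out the top cell of each age gave 2 in SEC. Nothing particular to these genes is read from the counts. The median log2 ratio over the 9 genes was 0.28 in AEC and −0.11 in SEC, against −0.03 and 0.05 over all genes past the filter. In OPr and mOPr the medians were 0.34 and 0.32, against 0.14 and 0.11. Median-of-ratios size factors moved the median of all genes by 0.16 in OPr, 0.12 in mOPr and 0.34 between young MSC-L and young MSC-S, and no difference reported there was corrected for it.

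Within library ranges the sign of the log2 ratio between ages was not the same in all ranges for 5 of 9 genes in MSC-L, 7 in MSC-S, 6 in OPr, 1 in mOPr and 9 in AEC. Of these, 2 in MSC-L (Sod1 and Sod3), 1 in MSC-S (Gpx7), 3 in OPr (Gpx8, Sod1 and Sod2), 1 in mOPr (Gpx7) and 6 in AEC (Gpx3, Gpx7, Gpx8, Sod1, Sod2 and Sod3) were past 2-fold in at least 1 range. A pooled value near 0 therefore does not say that the gene was level in each range, and only in mOPr did nearly all genes keep their sign. With the median over cells, besides Cat in OPr, Gpx1 in MSC-L (−2.84), Gpx8 in OPr (−5.67) and Sod1 in mOPr (−1.82) were past 2-fold opposite to the pooled value.

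**Figure D1:**
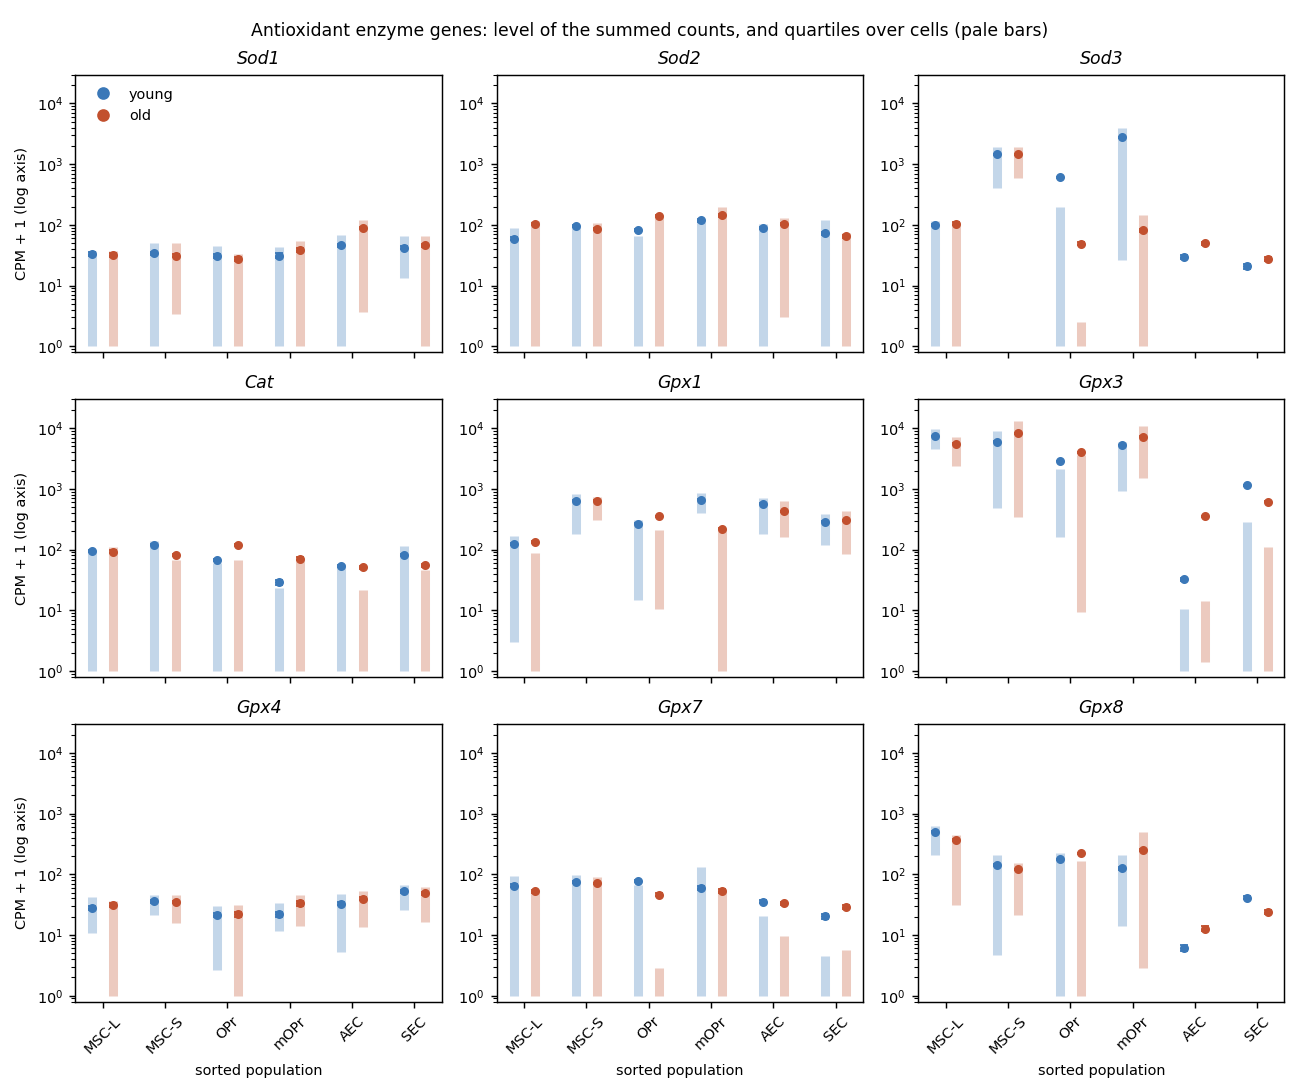
Level of each antioxidant enzyme gene in the 6 sorted populations, young and old, as CPM + 1 on a log axis. Points are the summed counts of a group with exact Poisson intervals, often smaller than the point, and pale bars span the lower to the upper quartile over cells, with no bar where both are 0. Sod3 was at 2774 CPM in young and 80.01 CPM in old mOPr, and the point of Gpx3 lay far above the quartiles over cells in old AEC.

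Sod1 (chr16:90220754-90226329), the cytosolic dismutase, was low and even. Over the 12 groups it ran from 26.3 (24.2 to 28.6) CPM in old OPr to 86.7 (83.6 to 89.8) CPM in old AEC. Apart from old AEC over young AEC, all neighbours in the order of levels (10 of 11 pairs) had overlapping intervals. In the pooled values all 4 endothelial groups stood above the 8 mesenchymal ones, although young SEC and old mOPr overlapped. Young AEC were at 44.9 CPM, young SEC at 41.1 CPM and young MSC-L at 32.2 CPM. Within range 1, young AEC at 43.04 CPM were under old MSC-S (46.01 CPM) and old MSC-L (45.7 CPM). SEC shared no range with mesenchymal cells.

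In AEC the log2 ratio of Sod1 between ages was 0.93 (0.86 to 1.04), just under the fold limit. Within ranges 1, 2 and 3 the log2 ratio was 1.60, 0.83 and −0.65, so that range 3 went the other way. In MSC-L the pooled value of −0.06 hid opposite values in range 1 (1.60) and range 2 (−0.87). In OPr the pooled value of −0.17 stood for −2.77 in range 1 and 0.49 in range 2. In young mOPr 1 cell held 42.7% of the Sod1 counts (17.9 CPM without it). Reads of Sod1 were not fully separable from those of a copy, since 23.1% of the 50-base windows of its transcript also occur in the processed pseudogene Gm8566. Ccs, which loads copper into SOD1, fell in old MSC-L (log2 ratio −1.44, 94.8 to 34.4 CPM).

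Sod2 (chr17:13006846-13040063), the mitochondrial manganese enzyme, varied little among groups, from 58.3 (55.2 to 61.5) CPM in young MSC-L to 142 (136 to 149) CPM in old mOPr. In the pooled values it did not pass the fold limit in any population. With the median over cells the log2 ratio was −3.09 in SEC (33.1 CPM in young and 3.01 CPM in old) and 2.17 in OPr. Within the OPr-like clusters M3 to M5 it was 1.71 in mOPr. The pooled log2 ratios nearest to the fold limit were 0.82 (0.73 to 0.93) in MSC-L and 0.78 (0.71 to 0.87) in OPr. In MSC-L the direction held in range 1 (0.73) and range 2 (0.94), whereas in OPr range 1 gave −0.97 and range 2 gave 2.00. In AEC ranges 1, 2 and 3 gave 0.69, −0.33 and 1.13. Overlapping neighbours in its order of levels were old mOPr and old OPr, old MSC-L and old AEC, young AEC, old MSC-S and young OPr in turn, and old SEC and young MSC-L (5 of 11 pairs). Single cells weighed on it: the top cell held 41.2% of its counts in young mOPr (71.1 CPM without it) and 31.6% in old mOPr.

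Sod3 (chr5:52363791-52371418), the secreted dismutase that binds the extracellular matrix, was the most uneven of the dismutases. In young mice its pooled level was highest in endosteal mesenchyme, at 2774 (2747 to 2801) CPM in mOPr, 1454 (1441 to 1466) CPM in MSC-S and 606 (597 to 615) CPM in OPr. In young MSC-L of the central marrow it was at 99.4 (95.3 to 104) CPM, and in young AEC and SEC at 28.5 (26.8 to 30.3) and 19.8 (18.02 to 21.8) CPM. Over cells the median was 856 CPM in young mOPr, 1208 CPM in MSC-S, 6.44 CPM in MSC-L and 2.85 CPM in OPr, so that OPr stood above MSC-L in the pooled value only. Of 17779 counts in young OPr, 14128 lay in 5 cells.

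In old mice the order changed in osteoprogenitors. Sod3 was at 80.01 (75.1 to 85.1) CPM in old mOPr and 47.8 (44.9 to 50.8) CPM in old OPr, a log2 ratio of −5.10 (−5.21 to −5.03) and −3.64 (−3.76 to −3.57), or 34.3-fold and 12.4-fold lower. In old OPr 1 cell held 49.7% of the counts (25.1 CPM without it). In MSC-S it stayed at 1448 (1436 to 1459.5) CPM with a log2 ratio of −0.01 (−0.02 to 0.01), 0.21 in range 1 and −0.10 in range 2. In old MSC-L it was at 104 (99.8 to 109) CPM, in old AEC at 48.7 (46.5 to 51.1) CPM and in old SEC at 26.5 (24.3 to 28.8) CPM. In MSC-L the pooled log2 ratio of 0.07 stood for 1.01 in range 1 and −0.43 in range 2. So the same gene fell in OPr and mOPr and was level in MSC-S, its other endosteal source, in the pooled values. The difference between those changes was not tested. Neighbours that overlapped in the order of levels were the ages of MSC-S, the ages of MSC-L, old AEC and old OPr, and young AEC and old SEC (4 of 11 pairs).

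Both falls were present in each library range, with log2 ratios of −5.08 and −5.11 for mOPr and −2.68 and −4.27 for OPr in ranges 1 and 2. Without the top cell of each age the log2 ratios were −5.17 and −4.08. Over cells the median was 856 CPM in young and 1.57 CPM in old mOPr, and 2.85 and 0 CPM in OPr. Sod3 had a count in 22 of 26 cells (84.6%, 65.1 to 95.6%) in young and 13 of 26 cells (50%, 29.9 to 70.1%) in old mOPr. In OPr these were 26 of 44 cells (59.1%, 43.2 to 73.7%) and 13 of 29 cells (44.8%, 26.4 to 64.3%). Shares of cells therefore changed less than the level, and the highest single cell of old mice reached 566 CPM in OPr and 469 CPM in mOPr.

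Marker lists of other cells moved with this fall. From young to old, the MSC-L list (10 of 10 at 10 CPM or more in all these groups, Cxcl12 the most abundant) went from 7982 to 26334 CPM in OPr and from 1837 to 27535 CPM in mOPr. Cartilage markers went from 38421 to 2384 CPM in OPr and from 9657 (5 of 6 at 10 CPM or more) to 573 CPM (2 of 6) in mOPr, with Comp the most abundant except for Col2a1 in young OPr. Pericyte and smooth muscle markers, led by Acta2 in old cells, went from 104 (3 of 6) to 2304 CPM (5 of 6) in OPr and from 162 (2 of 6, Rgs5 at 0) to 2249 CPM (5 of 6) in mOPr. The part of these cells in the fall of Sod3 was not tested.

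By deposited cluster, the pooled Sod3 of young osteoprogenitors was highest in the clusters the authors called MSC-S-like, although the highest single cell of young mOPr, at 8769.7 CPM, lay in M3 to M5. In M6 to M16 there were 5 young OPr at 3113 (3061 to 3164) CPM and 16 young mOPr at 3402 (3365 to 3439.5) CPM, and no old OPr or mOPr. Within the OPr-like clusters M3 to M5, Sod3 was at 168 (162 to 173) CPM in 36 young and 10.4 (8.60 to 12.4) CPM in 19 old OPr, where 1 cell held 57.4% of the counts (4.74 CPM without it). In mOPr of these clusters it was at 1884 (1844 to 1925) CPM in 8 young cells, of whose counts that cell held 85.4% (339 CPM without it), and at 119 (110.0 to 128) CPM in 12 old cells. In the MSC-L-like M1 and M2, old OPr were at 93.7 (87.7 to 100.0) CPM, with 56.4% of the counts in 1 cell (45.03 CPM without it), and old mOPr at 45.3 (40.3 to 50.8) CPM. Sod3 was a guide gene of this clustering, so these values describe the clusters and support nothing.

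**Figure D2:**
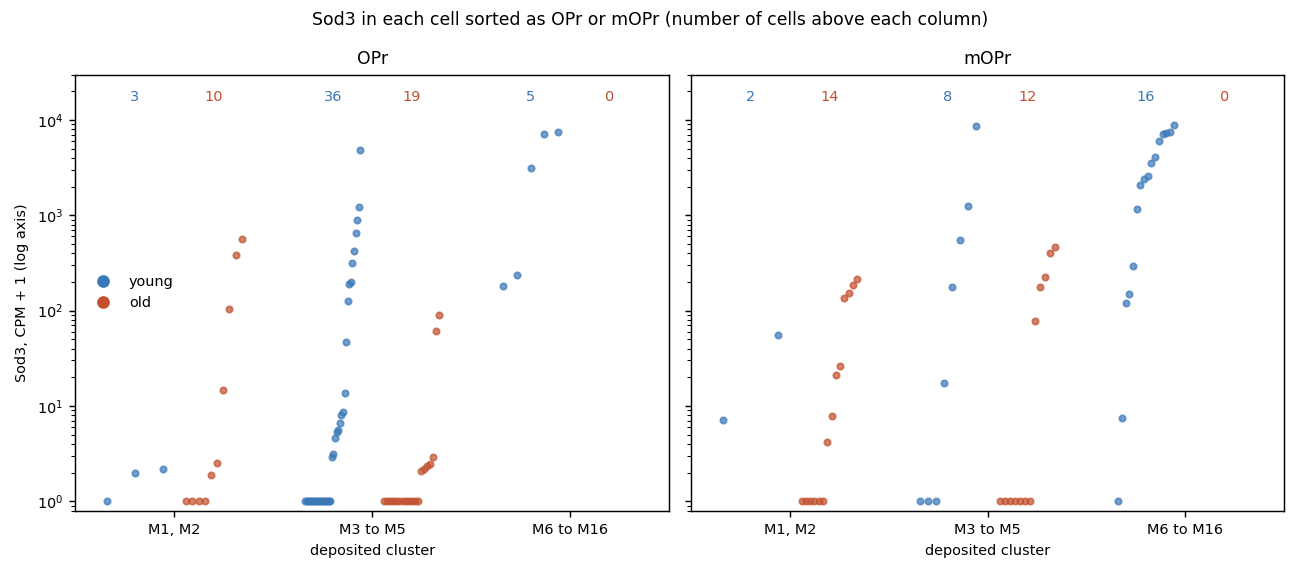
Sod3 in each OPr and mOPr cell as CPM + 1 on a log axis, by group of deposited clusters and age, with cells in order of level. The number above each column is its number of cells. Old OPr and mOPr were absent from M6 to M16, where young OPr were at 3113 CPM and young mOPr at 3402 CPM.

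Across all clusters with at least 5 cells (19 of 23, the other 4 holding 7 cells), Sod3 was highest in M15 at 3927 (3892 to 3963) CPM, a cluster of 17 young cells. It followed at 1803 CPM in M9, 1603 CPM in M7, 1562 CPM in M6, 1558 CPM in M12 and 1440.4 CPM in M16, and was at 13.1 CPM in M3 (4.51 CPM without its top cell). Among endothelial clusters it was highest in E2, which the authors called pericytes, at 409 (388 to 431) CPM with a count in 8 of 8 cells. In E6, 0 counts were found in 24 cells, which allows up to 0.469 CPM. Sod3 was a guide gene of the endothelial clusters too, so these values describe the clusters and support nothing. Over all SEC, 71 old and 70 young cells, 28 cells had a count of Sod3.

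In old AEC, 1 cell of E4 in range 3 held 45.6% of the group's Sod3 counts, at 2289 CPM. That cell carried 0 of 10 endothelial markers at 10 CPM or more and 5 of 8 markers of MSC-S and fibroblasts. The pooled log2 ratio in AEC was 0.75 (0.66 to 0.89), with extremes of −0.96 and 2.27 over the other settings tried.

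Cat (chr2:103453849-103485160) encodes catalase, which splits hydrogen peroxide into water and oxygen. Its levels lay between 27.8 (25.2 to 30.7) CPM in young mOPr and 119 (116 to 123) CPM in young MSC-S. Old OPr at 118 (114 to 123) CPM did not differ from young MSC-S beyond the intervals, nor did young from old MSC-L (95.1 and 91.4 CPM), young SEC from old MSC-S, old mOPr from young OPr, or old SEC from young and old AEC in turn (6 of 11 neighbouring pairs). No single cell carried the gene, the top cell holding from 9.79% to 26.6% of the counts of a group.

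In mOPr Cat went from 27.8 (25.2 to 30.7) to 70.3 (65.7 to 75.1) CPM, a log2 ratio of 1.31 (1.17 to 1.51). It was 1.67 in range 1 and 1.00 in range 2, yet over cells the median was 3.88 CPM in young and 3.35 CPM in old mOPr. The 8 young mOPr in M3 to M5 were at 12.6 (9.52 to 16.4) CPM, with 87.5% of the counts in 1 cell (1.81 CPM without it). Of the old mOPr, the 14 cells in M1 and M2 were at 109 (101 to 117) CPM and the 12 in M3 to M5 at 27.6 (23.5 to 32.1) CPM. Of the latter counts 1 cell held 71.2% (9.27 CPM without it). The MSC-L list rose with Cat in mOPr, from 1837 to 27535 CPM, and its part was not tested. In MSC-L the pooled log2 ratio of −0.06 stood for 0.98 in range 1 and −0.50 in range 2. In MSC-S and SEC the gene was lower in old cells, with log2 ratios of −0.57 (−0.64 to −0.51) and −0.58 (−0.70 to −0.48), short of the fold limit. In SEC this was not so where cells with Cxcl12 at 1000 CPM or more were left out (68.02 CPM in young and 73.2 CPM in old). With the median over cells Cat in SEC was at −3.29, past 2-fold (8.75 CPM in young and 0 in old), and in MSC-S at 0.13.

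Glutathione peroxidases reduce peroxides with glutathione or related thiols. GPX1 acts in the cytosol and mitochondria, GPX3 is secreted, GPX4 reduces peroxidised membrane lipids, and GPX7 and GPX8 sit in the endoplasmic reticulum. GPX1, GPX3 and GPX4 use selenocysteine, written as a TGA codon that would otherwise stop translation, whereas GPX7 and GPX8 use cysteine.

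The windows around the active codon show this divide among the members and are given from the coding strand of GENCODE M21 transcripts on GRCm38, with the active codon in capitals. It is codon 47 of Gpx1 at chr9:108339439-108339465 (plus strand), codon 73 of Gpx3 at chr11:54907244-54907270 (plus strand), codon 129 of Gpx4 at chr10:80054725-80054751 (plus strand), codon 56 of Gpx7 at chr4:108403418-108403444 (minus strand) and codon 79 of Gpx8 at chr13:113045649-113045675 (minus strand).
Gpx1: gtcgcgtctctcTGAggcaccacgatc
Gpx3: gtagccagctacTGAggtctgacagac
Gpx4: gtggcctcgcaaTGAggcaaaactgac
Gpx7: gtagctagcgaaTGTggcttcacagac
Gpx8: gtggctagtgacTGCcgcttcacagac

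Gpx1 (chr9:108338903-108340343) was most abundant in young mOPr at 658 (645 to 671) CPM, old MSC-S at 639.5 (632 to 647) CPM and young MSC-S at 635 (626 to 643) CPM, whose intervals overlapped in turn. The other 9 of 11 neighbouring pairs were apart beyond their intervals, down to 135 (129.8 to 140.2) CPM in old and 123 (118 to 128) CPM in young MSC-L. Endothelial groups lay between, with 571 CPM in young and 429.6 CPM in old AEC and 289 CPM in young and 304 CPM in old SEC. Marrow MSC-L were thus the poorest in this gene at both ages.

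With age, Gpx1 fell in mOPr to 222 (213 to 230.0) CPM, a log2 ratio of −1.57 (−1.63 to −1.51). The direction was the same in range 1 (−0.78) and range 2 (−2.28), and the median over cells went from 549 to 58.1 CPM. In old mOPr, cells of M1 and M2 were at 64.04 (58.1 to 70.5) CPM, where 1 cell held 57.5% of the counts (28.4 CPM without it), and cells of M3 to M5 at 397 (381 to 413) CPM, beside 587 (565 to 610.4) CPM in young mOPr of M3 to M5. Within M3 to M5 the log2 ratio was −0.56, short of 2-fold. The MSC-L list moved with this fall as given for Sod3, and its part was not tested. In OPr the pooled values were 268 (262 to 274) CPM in young and 351 (343 to 359) CPM in old, where 1 cell held 45.96% of the counts. The log2 ratio there, without the top cell of each age, was −0.33 in place of 0.39, and ranges 1 and 2 gave −0.30 and 0.82. Within M3 to M5 the log2 ratio in OPr was 1.21, past 2-fold (225 CPM in young and 524 CPM in old). Of the old counts in these clusters 1 cell held 55.9% (249 CPM without it). In mOPr the pooled log2 ratio was −1.85 without the top cells.

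Gpx3 (chr11:54902453-54910377), the secreted peroxidase known from plasma, was the leading member in the mesenchymal groups. In mesenchymal groups it ran at 7419 (7383 to 7454) CPM in young and 5589 (5556 to 5622) CPM in old MSC-L, and at 6034 (6008 to 6059.7) and 8196 (8168 to 8225) CPM in MSC-S. In OPr it was at 2915 (2896 to 2935) and 3979.7 (3953 to 4007) CPM, and in mOPr at 5282 (5245 to 5319.6) and 7261 (7214 to 7309) CPM. Nearly every mesenchymal cell had reads of it, all but 1 young OPr cell, and all 11 neighbours in the order of its 12 levels were apart beyond their intervals.

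Gpx3 was lower in old MSC-L, at a log2 ratio of −0.41 (−0.42 to −0.40) and higher in old MSC-S, at 0.44 (0.43 to 0.45), in OPr at 0.45 (0.44 to 0.46) and in mOPr at 0.46 (0.45 to 0.47), each short of the fold limit. It was lower in MSC-L in range 1 (−0.14) and range 2 (−0.56), and higher in MSC-S in both (1.15 and 0.17). In OPr the ranges differed in sign, at 0.87 in range 1 and −0.23 in range 2, and without the cells with blood markers the pooled value was 0.77. Old OPr in M1 and M2 were at 7433 (7378 to 7487) CPM and those in M3 to M5 at 1163 (1144 to 1183) CPM, so that the level in old OPr followed the cluster. Young OPr in M3 to M5 were at 2933 (2910.4 to 2956) CPM, and mOPr of these clusters at 7716 (7635 to 7798) CPM in young and 2406 (2367 to 2446) CPM in old cells. Within M3 to M5 the log2 ratio was thus −1.33 in OPr and −1.68 in mOPr, past 2-fold and opposite to the pooled values. Single cells moved each of these 4 levels by more than 1.5 times: in M3 to M5, 1 cell held 38.3% of the counts in young and 39.9% in old OPr (1912 and 759 CPM without it), and 44.3% in young and 51.8% in old mOPr (4685 and 1236 CPM without it). Cells within a population spread widely, from a lower quartile of 346 CPM to an upper one of 13001 CPM in old MSC-S. In MSC-L the quartiles were closer, 4553 and 9682 CPM in young cells.

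Among clusters, Gpx3 was highest in M16 at 11031 (10989.9 to 11072) CPM, followed by M2 at 7771 CPM and M1 at 6929 CPM. It was low in the MSC-S-like clusters M7 (1137 CPM) and M9 (1485 CPM) and, in the pooled values, lowest of the mesenchymal ones in M4 (687 CPM). M4 was at 573 CPM without its top cell, with a median over cells of 518 CPM. In M7 and M9 the medians over cells were 18.5 and 15.6 CPM. There 1 cell held 55.7% and 58.5% of the counts, without which the levels were 534 and 691 CPM. M7 was thus under M4 in the median and without top cells. Between these and M16 lay M6 (3581 CPM, and 2174 CPM without its top cell), M15 (4096 CPM), M12 (5911 CPM) and M8 (6608 CPM, and 3252 CPM without its top cell), so that the MSC-S-like clusters spread over a range of levels. Gpx3 was not a guide gene of the mesenchymal clusters, but it was one of the endothelial clusters.

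In endothelial cells Gpx3 depended on which cells were counted. Over all cells it was at 1138 CPM (1124 to 1152) in young and 609.6 CPM (599 to 620.3) in old SEC, and at 31.6 CPM (29.8 to 33.6) in young and 353 CPM (347 to 359.7) in old AEC. Of 307 endothelial cells, 130 had Cxcl12 at 1000 CPM or more, namely 41 of 84 young AEC, 46 of 82 old AEC, 17 of 70 young SEC and 26 of 71 old SEC. The median cell had almost none of Gpx3, at 4.31 and 2.34 CPM in young and old SEC and 4.27 and 4.07 CPM in AEC.

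Without the cells at or above that limit, Gpx3 was at 57.5 CPM (53.9 to 61.4) in young and 19.7 CPM (17.4 to 22.1) in old SEC. With only those cells it was at 4069 CPM (4018 to 4121) and 1769 CPM (1738 to 1801). The 24.3% of young SEC with much Cxcl12 thus held 96.3% of the group's Gpx3 counts, and the 36.6% of old SEC held 97.9%. Gpx3 of SEC was therefore nearly all in the Cxcl12-rich cells at both ages.

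Gpx3 at 1000 CPM or more was found in 23 of 130 Cxcl12-rich cells (17.7%) and 1 of 177 others (0.565%). At 100 CPM or more the counts were 37 and 13 cells. Of the 23 cells, 19 carried at least 7 of 10 MSC-L markers (18 at least 7 of the 9 other than Cxcl12) and 14 lay in E1, which the authors called doublets and all of whose 14 cells were rich in Cxcl12. Gpx3 was itself a guide gene of the endothelial clusters, so the number in E1 describes that clustering and supports nothing. The 6 cells nearest to the limit were all AEC. Those just under it, at 876, 958 and 967 CPM of Cxcl12, had 13.04, 0 and 2.51 CPM of Gpx3, and those just above it, at 1017, 1041 and 1072 CPM, had 0, 7.58 and 18.1 CPM. Of SEC, the nearest cells under it, at 745, 747 and 747 CPM of Cxcl12, had 256, 5.45 and 92.9 CPM of Gpx3, and those above it, at 1117, 1166 and 1415 CPM, had 0, 358 and 19.4 CPM. So few cells do not show whether Gpx3 changes at the limit.

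Cxcl12, which chose these cells, is itself on the MSC-L list, so its sums of 32524 CPM in young and 17195 CPM in old Cxcl12-rich SEC, against 9296 and 5923 CPM in the other SEC, were bound to differ. The list was therefore summed without it, a choice made after the data were seen. The 9 other genes summed to 12321 CPM in young and 6734 CPM in old Cxcl12-rich SEC, with 9 of 9 at 10 CPM or more, and to 9189 and 5857 CPM in the other SEC, with 7 of 9 and Apoe the most abundant in all. As a sum these 9 set the Cxcl12-rich cells less apart than with Cxcl12, in old SEC least. Much of that sum was Apoe, at 5419 CPM in Cxcl12-rich and 5315 CPM in other young SEC, and 2811 and 3378 CPM in old SEC. Osteolineage markers summed to 4415 CPM (5 of 8 at 10 CPM or more) in Cxcl12-rich and 52.2 CPM (1 of 8) in other young SEC. In old SEC these sums were 1438 CPM (6 of 8) and 19.2 CPM (0 of 8). Lepr, the receptor used to sort MSC-L, was at 2177 and 675 CPM in the Cxcl12-rich cells and 76.6 and 60.1 CPM in the others. None of the 9 was at 0 in either set. Endothelial markers summed to 6835 CPM in Cxcl12-rich and 11238 CPM in other young SEC, again 10 of 10 in both. What part MSC-L transcripts had in the Gpx3 of SEC was not tested.

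Between ages, the log2 ratio of Gpx3 in SEC was −0.90 (−0.93 to −0.87) over all cells, −1.50 (−1.75 to −1.35) without Cxcl12-rich cells and −1.20 (−1.23 to −1.17) within them. Both parts alone passed 2-fold and the whole did not, and the share of Cxcl12-rich cells was 24.3% in young and 36.6% in old SEC. It was −1.40 (−1.44 to −1.36) without the top cell of each age, which in old SEC held 39.7% of the counts. Leaving out E1 and E2 brought it to −0.37, but Gpx3 was a guide gene of that clustering. SEC lay in 1 library range, so that no value from another range could be had.

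In AEC, 2 old cells decided the level. The first, in E4 and range 2, held 78.8% of the Gpx3 counts of old AEC at 18508 CPM, with Cxcl12 at 2870.0 CPM, 10 of 10 endothelial and 6 of 10 MSC-L markers. The second, in E4 and range 3, held 94.7% of the counts in old AEC without Cxcl12-rich cells, at 6827 CPM. It was the cell with 0 of 10 endothelial markers named for Sod3, and Cxcl12 was at 0 in it. No other old AEC cell reached 1000 CPM of Gpx3. In young AEC 1 cell did, at 2219 CPM, and held 69.3% of the counts.

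Old AEC were at 518 CPM (508 to 528) in Cxcl12-rich cells and 155 CPM (149 to 161) in the others, and young AEC at 59.9 CPM (56.2 to 63.8) and 7.45 CPM (6.27 to 8.80). The log2 ratio was thus 3.44 (3.39 to 3.57) over all cells and 4.20 (4.13 to 4.63) without Cxcl12-rich cells. Without the top cell of each age the latter was 0.36 (0.03 to 0.78), with 0.86, −0.41 and −0.36 in ranges 1, 2 and 3. Over all cells it was −2.42, 5.55 and 5.10 in these ranges, and without the top cell of each age 0.52, −0.57 and 5.10, with a pooled value of 2.83. The MSC-L list summed to 4396 CPM in young and 4237 CPM in old AEC, 9 of 10 at 10 CPM or more and none at 0, with Cxcl12 the most abundant. The higher level of Gpx3 in old AEC thus rested on single cells and was not seen in the median cell.

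**Figure D3:**
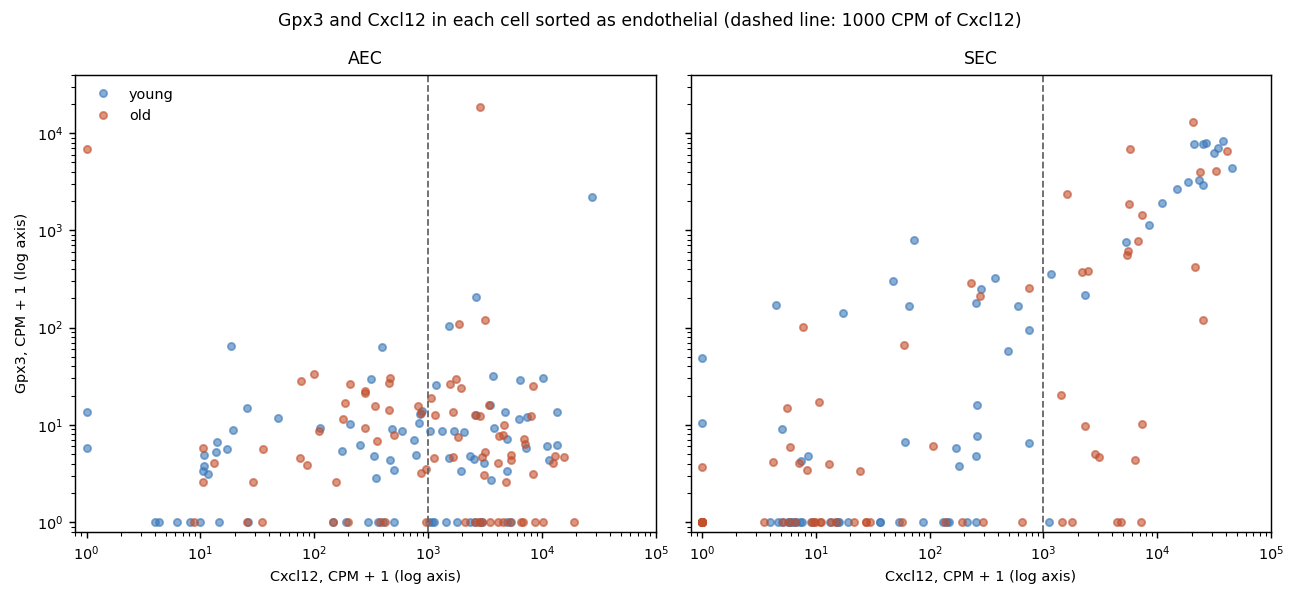
Gpx3 against Cxcl12 in each endothelial cell, young and old, as CPM + 1 on log axes, for AEC and SEC. The dashed line marks the Cxcl12 limit of 1000 CPM. In SEC the cells with most Gpx3 lay to its right, and in AEC 2 old cells and 1 young cell stood above 1000 CPM of Gpx3.

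Of the 307 endothelial cells, 11 carried fewer than 5 of 10 endothelial markers, 2 young AEC, 4 old AEC and 5 old SEC, and 6 of these lay in E2. An alternative without them was chosen after the data were seen. It left Gpx3 at a log2 ratio of 3.18 in AEC and −1.08 in SEC, and turned Gpx8 in AEC from 1.05 to −0.30. Among the 11, 1 cell of old SEC in E1 carried 1 of 10 endothelial and 10 of 10 MSC-L markers, with Gpx3 at 6541 CPM. Another of old SEC, in E5, carried 2 of 10 endothelial and 3 of 10 MSC-L markers and none of MSC-S, osteolineage or pericytes, with Gpx3 at 6789 CPM and Cxcl12 at 5735 CPM.

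Gpx4 (chr10:80047166-80056439), which guards membranes against lipid peroxidation, was even across the stroma in the pooled values. It ran from 20.4 (18.8 to 22.1) CPM in young OPr to 51.7 (48.7 to 54.8) CPM in young SEC, with 9 of 11 neighbouring pairs overlapping. The breaks in the order came below SEC of both ages, which were the highest, and below young MSC-L, under which young mOPr and both ages of OPr stood. Pooled old over young log2 ratios lay between −0.11 in SEC and 0.61 in mOPr. Within clusters M3 to M5 the log2 ratio was 1.79 in mOPr, past 2-fold, and with the median over cells −0.95 in MSC-L. Ranges 1 and 2 gave −0.60 and 0.53 in OPr, and ranges 1, 2 and 3 gave −0.38, 0.59 and 0.67 in AEC. The level of Gpx4 is uncertain, as 61.7% of the 50-base windows of its transcript also occur in Gpx4-ps2 and reads that mapped to several places had been dropped.

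Gpx7 (chr4:108400390-108406961) stood higher in mesenchymal groups, 45.3 (42.5 to 48.2) CPM in old OPr to 77.4 (74.3 to 80.7) CPM in young OPr, than in endothelial ones, 19.4 (17.6 to 21.4) CPM in young SEC to 34.4 (32.5 to 36.4) CPM in young AEC. Old OPr and young AEC, at the inner ends of these ranges, were apart beyond their intervals, and so were old and young SEC. No other neighbours were. The order rests on 1 cell for old OPr, which without its top cell were at 18.8 CPM, under young AEC (27.05 CPM), old AEC (26.8 CPM) and old SEC (22.7 CPM) without theirs. The other 7 mesenchymal groups, from 42.6 CPM in old mOPr upward, stayed above all endothelial ones on this footing. Within ranges the order did not always hold. In range 1 old mOPr were at 33.6 CPM against 51.4 CPM in young AEC, and in range 2 young OPr at 36.3 CPM against 37.7 CPM in old AEC. The largest pooled difference between ages was in OPr, at −0.76 (−0.88 to −0.66), where 1 cell held 60.3% of the counts in old OPr. It was −1.50 there without the top cell of each age and −2.97 within clusters M3 to M5, both past 2-fold. With the median over cells Gpx7 was at −3.97 in mOPr and −2.29 in MSC-L. Ranges 1 and 2 gave −0.44 and −1.61 in OPr, 1.02 and −0.62 in MSC-S and −1.21 and 0.67 in mOPr. In AEC ranges 1, 2 and 3 gave −0.88, 0.15 and 1.12.

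Gpx8 (chr13:113042753-113046410) was highest in marrow MSC-L in the pooled values, with 503 (494 to 512) CPM in young and 368 (359.5 to 377) CPM in old cells. Endosteal mesenchyme was lower, with 143 CPM in young and 119.8 CPM in old MSC-S, 175 CPM in young and 221 CPM in old OPr, and 124 CPM in young and 254 CPM in old mOPr. In old cells this order did not always hold. The median over cells was 269 CPM in old mOPr and 235 CPM in old MSC-L. In range 1 old OPr were at 423 CPM and old MSC-L at 413 CPM. Old OPr of M1 and M2 were at 476 CPM and old mOPr of these clusters at 415 CPM. Endothelial groups were lowest, with 5.11 CPM in young and 11.7 CPM in old AEC and 40.1 CPM in young and 22.8 CPM in old SEC. Only young mOPr and old MSC-S, of 11 neighbouring pairs, had overlapping intervals.

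In mOPr Gpx8 rose to a log2 ratio of 1.03 (0.95 to 1.12), with 1.29 and 0.85 in ranges 1 and 2. The MSC-L list rose with it: old mOPr of M1 and M2 were at 415 (399 to 431) CPM and those of M3 to M5 at 75.3 (68.4 to 82.6) CPM (49.96 CPM without the top cell), against 129 (119 to 140.3) CPM in young mOPr of M3 to M5. Within M3 to M5 the direction was therefore opposite. In OPr the same clusters gave 166 (161 to 172) CPM in young and 13.4 (11.4 to 15.7) CPM in old cells (8.07 CPM without the top cell). In OPr as a whole the log2 ratio of 0.34 stood for 1.47 in range 1 and −1.16 in range 2. The part of MSC-L-like cells in the pooled rise was not tested.

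In AEC Gpx8 went from 178 counts in young to 407 in old cells, a log2 ratio of 1.05 (0.93 to 1.45). In young AEC 1 cell of E1 in range 1, with 10 of 10 MSC-L markers, held 51.7% of the counts (2.49 CPM without it, against 5.11 CPM). Within ranges the log2 ratio was −1.58, 2.30 and 4.56 in ranges 1, 2 and 3, the last under the filter, and in range 1 young AEC were at 15.2 CPM (6.34 CPM without that cell) and old AEC at 4.41 CPM (1.96 CPM without their top cell). Of the counts in old AEC, 3 cells of E2 held 25.8%, 19.4% and 13.8%, each with 1 of 10 endothelial markers and 5 or 6 of 6 pericyte and smooth muscle markers. A further 17.9% lay in the cell with most Gpx3, which carried 10 of 10 endothelial markers. In SEC without Cxcl12-rich cells Gpx8 had 0 counts at both ages, against 880 and 473 counts over all young and old SEC. The pooled log2 ratio of SEC was −0.79, and −1.16 without the top cell of each age. What other stroma had to do with endothelial Gpx8 was not tested.

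Per kilobase of exon, on which levels of different genes can be set side by side, Gpx3 was first among the 9 in all 8 mesenchymal groups and, with all cells counted, in SEC of both ages. It made up from 67.5% (young mOPr) to 88.4% (old mOPr) of the summed level per kilobase in mesenchymal groups, and 65.02% and 50.7% in young and old SEC. In SEC without Cxcl12-rich cells Gpx1 came first, at 188 CPM per kilobase in young and 213 in old cells, against 31.7 and 10.8 for Gpx3. This alternative was chosen after the data were seen. With all cells, the next was Gpx8 in MSC-L (479.9 CPM per kilobase in young cells against 4092 for Gpx3), Gpx1 in MSC-S and OPr, Sod3 in young mOPr (742) and Gpx8 in old mOPr (242). In AEC Gpx1 led, at 396 CPM per kilobase in young and 298 in old cells. Secreted Gpx3 thus led the family in mesenchyme and Gpx1 in AEC, on exon union lengths and equally on the length of 1 transcript a gene.

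Between young populations, 3 of 9 genes passed the fold limit for MSC-L over MSC-S, beside 45.5% of all genes past the filter. These were Sod3 at a log2 ratio of −3.86 (−3.93 to −3.81), Gpx1 at −2.36 (−2.43 to −2.31) and Gpx8 at 1.81 (1.77 to 1.87). MSC of the marrow were thus lower in the extracellular dismutase and in Gpx1 and higher in Gpx8 than MSC of the endosteum, in both library ranges. OPr over MSC-S also gave 3 of 9, beside 36.3%, with Sod3 at −1.26 (−1.29 to −1.24), Gpx1 at −1.24 (−1.28 to −1.21) and Gpx3 at −1.05 (−1.06 to −1.04), the last being 0.25 in range 1 and −1.82 in range 2. Sod3 was at −1.78 and −0.97 and Gpx1 at −0.86 and −1.51 in these ranges, so that each of the 3 genes was past 2-fold in 1 range only.

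For mOPr over OPr, 3 of 9 passed, beside 37.9%, with Sod3 at 2.19 (2.17 to 2.22), Gpx1 at 1.29 (1.25 to 1.34) and Cat at −1.22 (−1.41 to −1.09). The PDGFRα+ osteoprogenitors were thus richer in Sod3 and Gpx1 and poorer in Cat in the pooled values. They also lay in other clusters, with 16 of 26 young mOPr against 5 of 44 young OPr in M6 to M16 and 8 against 36 in M3 to M5, and cartilage markers summed to 9657 against 38421 CPM and markers of MSC-S and fibroblasts to 1708 (6 of 8 at 10 CPM or more) against 300.5 CPM (3 of 8, Igfbp6 the most abundant in both). The part of this in the differences was not tested. In ranges 1 and 2 Sod3 was at 2.81 and 1.84, Gpx1 at 0.92 and 1.61 and Cat at −1.52 and −0.84, so that only Sod3 was past 2-fold in both. With the median over cells Cat was at 0.19, the other way. AEC over SEC, which could be compared within range 3 only, gave 3 of 9, beside 42.2%. These were Gpx3 at −6.71 (−7.22 to −6.49), Cat at −1.34 (−1.58 to −1.15) and Gpx8 at −5.15 with CPM + 1, on 1 count in AEC against 880 in SEC, where the interval of the ratio of counts is −13.33 to −5.54. Without Cxcl12-rich cells Gpx3 was at −3.23 and still past 2-fold, Cat was at −0.39 and no longer so, and Gpx8 showed no such difference, since SEC then had 0 counts. Sod3, at 0.75 over all cells, had no settled direction: it was at 1.55 without Cxcl12-rich cells, −4.15 in own clusters and −1.16 without the cells with few endothelial markers, an alternative chosen after the data were seen. Those left out by the last were 2 young AEC of E2, at 259 and 338 CPM of Sod3.

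Across the 12 groups, which share library ranges, the genes with the pattern most like each member were found by Pearson's r of log2(CPM + 1) among 10450 genes, with no p given. For the dismutases they were Gm8566 (r = 0.95), Gm15587 (r = 0.91), Prr14 (r = 0.90) for Sod1, Ankrd9 (r = 0.86), Phykpl (r = 0.86), 0610010F05Rik (r = 0.85) for Sod2 and Twsg1 (r = 0.95), Sema3e (r = 0.95), Pamr1 (r = 0.95) for Sod3. For Cat they were Echs1 (r = 0.89), Il1rl2 (r = 0.86), Zfp426 (r = 0.85). The nearest to Sod1 is the pseudogene that shares part of its sequence.

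For the peroxidases they were Tmbim1 (r = 0.94), Gm12174 (r = 0.93), Ackr3 (r = 0.92) for Gpx1, Lpar1 (r = 0.96), Abca8a (r = 0.95), Evc (r = 0.95) for Gpx3 and Abca1 (r = 0.92), Mvp (r = 0.92), Ackr1 (r = 0.92) for Gpx4. Gpx7 was followed by Vasn (r = 0.95), Ddost (r = 0.94), Fkbp9 (r = 0.94) and Gpx8 by Clmp (r = 0.98), Zfhx4 (r = 0.98), Srpx (r = 0.98). Between members, Gpx3 and Gpx8 were most alike (r = 0.93), then Gpx7 and Sod3 (r = 0.80), and Gpx8 and Sod1 most opposed (r = −0.75).

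Other genes of the redox pathways were taken as 82 genes in 10 lists. Of the 82, 74 passed the filter, 36 were at least 2-fold higher and 8 lower in old cells for OPr, beside 25.6% higher and 19.6% lower of all genes. Without the 7 cells with blood markers, an alternative chosen after the data were seen, 71 passed, 28 higher and 6 lower, beside 27% and 17.7% of all genes. In mOPr 66 passed the filter, 21 were at least 2-fold higher and 10 lower in old cells, beside 24.7% and 19.8% of all genes, so that the share of redox genes past the limit was near that of all genes. Elsewhere the counts were 7 higher and 5 lower of 69 in MSC-L (beside 13.9% and 11.5% of all genes), 0 and 8 of 67 in MSC-S (beside 8.65% and 11.1%), 4 and 7 of 70 in AEC (beside 9.33% and 11.7%), and 9 and 4 of 69 in SEC (beside 13.1% and 7.56%). Both osteoprogenitor populations, with the largest shares of all genes past the fold limit, also had the most redox genes past it, and nothing particular to these lists is read from the counts. The other glutathione peroxidases, Gpx2, Gpx5 and Gpx6, passed the filter nowhere.

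By list, and beside the shares of all genes just given, sources of superoxide and peroxide had 7 higher and 1 lower of 8 genes past the filter in OPr, glutathione synthesis and recycling 5 higher and 2 lower of 8, selenium handling 5 higher and 1 lower of 10, the thioredoxin system 5 higher and 1 lower of 11 and the NRF2 pathway 4 higher and 0 lower of 9. Without the cells with blood markers these were 5 higher and 1 lower of 7, 3 higher and 1 lower of 7, 6 higher and 1 lower of 10, 3 higher and 1 lower of 11 and 2 higher and 0 lower of 9. In mOPr, glutathione synthesis and recycling had 5 higher and 1 lower of 6, glutathione S-transferases 5 higher and 1 lower of 9, selenium handling 3 higher and 3 lower of 10 and the NRF2 pathway 1 higher and 1 lower of 9. Peroxiredoxins, which take up peroxide beside the peroxidases, had none past the fold limit of 6 in each of MSC-L, MSC-S, AEC and SEC, beside 25.4%, 19.7%, 21.1% and 20.7% of all genes. In OPr Prdx5 rose from 66.1 to 326 CPM and Prdx1 fell from 163 to 71.3 CPM, at log2 ratios of 0.92 and −0.87 without the cells with blood markers. In mOPr Prdx2 fell from 224 to 97.1 CPM.

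Of the list of superoxide and peroxide sources, Ncf1, an organiser of the phagocyte oxidase, went in OPr from 0.205 to 256 CPM at a log2 ratio of 7.74 (counting interval 9.17 to 11.74), and Rac2 from 0.136 to 307 CPM at 8.08 (counting interval 9.78 to 13.01), where the intervals of the ratio of counts lie above values damped by the added 1 CPM. The blood list rose beside them, and without the 7 cells with blood markers the log2 ratios were 5.72 and 5.55. The cystine transporter Slc7a11, at 7.98 over all cells, was at 0.33 without them, the ferritin chain Fth1 at 0.25 in place of 2.13, and the lipoxygenase Alox5 at −0.53 in place of 5.33. The rises of Slc7a11, Fth1 and Alox5 were thus not seen past 2-fold without those cells, whereas Ncf1 and Rac2 still rose. The blood list of the remaining old OPr was still at 2691 CPM (5 of 15 at 10 CPM or more) against 25.5 CPM in young OPr, so that leaving out the 7 cells did not remove blood transcripts. Red cell markers went from 5.49 CPM (0 of 6) in young to 226.5 CPM (5 of 6) in old OPr, and to 282 CPM (6 of 6) without the 7 cells. In MSC-L, where no cell had 7 blood markers, Ncf1 also rose, from 0.0438 to 38.6 CPM, at 5.24 (6.28 and 4.14 in ranges 1 and 2, and 4.78 without the top cell of each age). Rac2 rose there at 2.60, and at 0.93 without the top cells, 1 old cell holding 82.6% of its counts. Beside them the blood list in MSC-L went from 16 CPM (1 of 15 at 10 CPM or more, Coro1a the most abundant) to 91.6 CPM (2 of 15, Lyz2) and red cell markers, led by Hbb-bs, from 26.4 CPM (0 of 6) to 100.0 CPM (4 of 6). The part of blood transcripts or of MSC-L-like cells in these rises was not tested.

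Srxn1, which restores peroxiredoxins, fell in OPr from 922 to 149 CPM, at a log2 ratio of −2.62 and of −2.90 without those cells. NRF2 itself, encoded by Nfe2l2, went from 54.9 to 414 CPM in OPr, and was at 1.76 in place of 2.89 without them. The oxidase Nox4 fell in OPr from 36.1 to 0.14 CPM, a log2 ratio of −5.02 (counting interval −10.29 to −6.46). Of the young counts 1 cell held 85.6% (−2.68 without the top cell of each age, a further alternative chosen after the data were seen). The MSC-L, cartilage and pericyte lists moved beside these changes in OPr as given for Sod3, and their part was not tested.

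OPr and mOPr shared further changes. G6pdx, which supplies NADPH, rose from 11.2 to 91.5 CPM in OPr and from 22.6 to 148 CPM in mOPr. The glutathione synthetase Gss fell in both, at log2 ratios of −2.58 and −3.18, as did the transferase Gsto1 at −2.72 and −4.47. Ggt5 rose at 2.63 and 3.93, Mgst1 at 2.80 and 2.31 and the heme oxygenase Hmox1 at 1.20 and 2.95. Single cells weighed on these: the top cell held 75.5% of the Ggt5 counts in young mOPr, 71.5% and 61.96% of the Mgst1 counts in young OPr and mOPr, 75.8% and 59.9% of the Hmox1 counts in young and old mOPr, 59.9% of the G6pdx counts in young OPr, 73.2% and 70.4% of the Gss counts in old OPr and mOPr, and 91.4% of the Gsto1 counts in old mOPr. With the top cell of each age left out, the log2 ratios in OPr and mOPr were 3.41 and 2.67 for G6pdx, −3.32 and −3.72 for Gss, −2.93 and −5.39 for Gsto1, 2.70 and 5.30 for Ggt5, 3.91 and 3.40 for Mgst1 and 0.90 and 3.56 for Hmox1. All kept their sign, and Hmox1 in OPr was then short of 2-fold. In mOPr the selenium carrier Sepp1 rose from 666 to 1417 CPM and the metallothionein Mt1 from 249.8 to 999.6 CPM. Without the cells with blood markers, the log2 ratios in OPr were 2.51 for G6pdx, −2.29 for Gss, −2.43 for Gsto1, 2.95 for Ggt5, 1.83 for Mgst1 and 0.77 for Hmox1. The MSC-L list moved with all of these, and its part was not tested.

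In MSC-L, Gss went the other way, from 0.965 to 26.9 CPM (log2 ratio 3.83), and Gclm, a subunit of the enzyme that makes the glutathione precursor, rose from 13.6 to 40.98 CPM. Hmox1 fell in MSC-L from 61.7 to 26.5 CPM and in MSC-S from 359.9 to 122 CPM, with 1 young MSC-S cell holding 68.2% of its counts there (−0.29 without the top cell of each age, against −1.55). The quinone reductase Nqo1, an NRF2 target, rose in MSC-L from 2.63 to 12.1 CPM and in SEC from 1.87 to 13.9 CPM and fell in MSC-S from 14.6 to 2.02 CPM, with 95%, 65.9% and 54.7% of the young counts in 1 cell. Its log2 ratios there, without the top cell of each age, were 2.73, 2.27 and −1.83. The NRF2 pathway list as a whole had 2 higher and 1 lower of 9 in MSC-L, 0 higher and 2 lower of 9 in MSC-S, 0 higher and 0 lower of 9 in AEC and 1 higher and 0 lower of 9 in SEC, beside 25.4%, 19.7%, 21.1% and 20.7% of all genes past the limit either way.

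In SEC the rises of Ncf1, Rac2 and Alox5 lay largely in 1 old cell for each gene, with 91.02%, 92.8% and 97.7% of the counts (0.82, 1.18 and 0.21 as log2 ratios without the top cell of each age). The blood list in SEC rose beside them, from 39.9 CPM (1 of 15 at 10 CPM or more, Cd74 the most abundant) to 317 CPM (6 of 15, Lyz2), and its part was not tested. Scly, a selenocysteine lyase, rose in SEC from 4.10 to 19.7 CPM and in MSC-L from 21.7 to 48.5 CPM. AEC gave few such genes, among them Glrx5, an iron-sulfur cluster glutaredoxin, which fell from 55.4 to 21.9 CPM.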

How the data were processed

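The deposited table holds counts of reads per gene in single cells, made by the authors with GSNAP (a release of 2015) on GRCm38.p4 and HTSeq, with no molecular identifiers and with reads of several positions dropped, per the submitters' notes. The members and gene lists were chosen with earlier results of these data known. Of 46078 gene rows, 270 repeated a symbol and were summed, and 37 mitochondrial genes were left out of totals, which left 45771 nuclear symbols in 661 cells. Cells were grouped by the population, age and cluster of their labels. Doublets were not called, and clusters with fewer than 5 cells were left out.

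A level was CPM of summed counts with an exact Poisson interval, a ratio took a pseudocount of 1 CPM, and shares of cells took Clopper-Pearson intervals. With 1 sample a group, nothing was tested, and library-number ranges were shown separately where both ages had at least 5 cells. A cell carried a marker at 10 CPM or more. Named genes were the 9 members, the 3 genes most like each by Pearson's r among genes with a mean of at least 10 CPM, and, of the pathway lists, genes at least 2-fold apart that went the same way in every range, at most 4 a list and population. Not all of these are described. Where a feature falls outside that rule, it was chosen after its values were seen.

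Alternatives were the mean or median over cells, median-of-ratios size factors, mitochondrial counts kept, cells thinned to 100000 counts, a pseudocount of 0.1 CPM, no filter, single ranges, and cells left out by top count, blood markers, cluster, Cxcl12 at 100, 1000 or 5000 CPM, or few endothelial markers. Calculations used Python 3.11.15 with numpy 2.4.6, pandas 2.3.3 and scipy 1.17.1, and plots used matplotlib 3.10.9. Counting of calls was tested on simulated Poisson counts with no added spread between cells. Such counts do not stand for genes whose reads lie in few cells.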

Additional observations from a re-analysis of the deposited data

How the results depend on the processing

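Of the alternatives for the log2 ratios of antioxidant enzymes between ages, 260 stayed within the interval of the reported value, 325 moved outside it and 6 turned a difference past 2-fold to the other sign. Between young populations these were 158, 202 and 3. The fall of Sod3 kept its sign and stayed past 2-fold in OPr, between −4.27 and −1.95, and in mOPr, between −8.38 and −3.98. The value of −3.98 came from the own clusters of mOPr, where the top cell held 85.4% of the young Sod3 counts. Without the top cell of each age the levels there were 339 CPM in young and 91.5 CPM in old mOPr, a smaller fall.

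The number of antioxidant enzymes past 2-fold between ages changed with the settings as follows, and the cause was not tested. With the median over cells it was 3 in MSC-L, 1 in MSC-S, 5 in OPr, 6 in mOPr, 0 in AEC and 2 in SEC. With the mean over cells it was 2 in OPr and 3 in AEC, and with size factors 3 in mOPr. With thinned cells it was 2 in OPr, 3 in mOPr, 1 in AEC and 1 in SEC. Range 1 alone gave 2 in MSC-L, 2 in MSC-S, 3 in OPr and 3 in AEC (Gpx3, Gpx8 and Sod1), range 2 alone 5 in OPr and 2 in mOPr, and range 3 alone 4 in AEC, where Gpx8 had counts in 4 cells and missed the filter. Without the top cell of each age it was 2 in OPr and 2 in SEC, and without cells with blood markers 2 in OPr. In each population's own clusters it was 6 in OPr, 6 in mOPr (Gpx3, Gpx4, Sod1, Sod2, Sod3 and Cat) and 1 in SEC. Without Cxcl12-rich cells it was 4 in AEC and 1 in SEC, and without cells with few endothelial markers, a choice made after seeing the data, 1 in SEC. Between young populations, the median over cells gave 5 for MSC-L over MSC-S, 6 for OPr over MSC-S and 5 for mOPr over OPr, range 1 alone 6 for MSC-L over MSC-S, range 2 alone 5 for OPr over MSC-S, and own clusters 6 for mOPr over OPr. The other counts there moved by at most 1 from 3.

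The log2 ratio of Gpx3 in AEC was 3.07 with the mean over cells, −0.06 with the median, 3.24 with thinned cells, −2.42, 5.55 and 5.10 in ranges 1, 2 and 3, 2.83 without top cells, 5.36 in own clusters, 5.03 without clusters E1 and E2 and 3.18 without cells with few endothelial markers. With cells left out at a Cxcl12 limit of 100, 1000 and 5000 CPM it was 5.78, 4.20 and 5.30. In SEC it was −0.66 with the mean over cells, −0.67 with the median, −0.96 with size factors, −0.66 with thinned cells, −1.40 without top cells, −0.37 in own clusters, −0.37 without clusters E1 and E2 and −1.08 without cells with few endothelial markers. At the same Cxcl12 limits it was −2.63, −1.50 and −0.13. Gpx3, Gpx8 and Sod3 were guide genes of the endothelial clusters, so their values in or without such clusters are description only. Signs also turned for Gpx8 in mOPr in own clusters (−0.77) and for Cat in mOPr with the median (−0.17). Gpx8 in AEC turned in range 1 (−1.58) and without cells with few endothelial markers (−0.30). Between young populations, Gpx3 of OPr over MSC-S turned in range 1 (0.25) and Cat of mOPr over OPr with the median (0.19). Gpx8 of young AEC over SEC was at 0.35 without Cxcl12-rich cells, but SEC then had 0 counts, so that no direction is read from it. Of the pathway genes named in OPr, Alox5 turned sign without cells with blood markers (−0.53), and the counts of all lists went from 36 to 28 higher and from 8 to 6 lower, alternatives chosen after seeing the data. The cause was not tested.

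No paired analysis was possible because the labels name no mouse. Age, mouse and sort cannot be told apart with 1 sample a group. SEC lay in 1 library range. Thinning left out 7 cells, and levels under 1 count in a cell were not detectable. Levels of Gpx4 and Sod1 depend on reads shared with copies elsewhere in the genome.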
